A study of Mus musculus with 3 samples.

Results

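The genes described here are 37 genes of the sarcomere and of excitation-contraction coupling, chosen by their symbols, and all 37 were found among the 32285 genes of the count tables. They were followed in cells of the E14.5 mouse soft palate, on the C57BL/6 background, with 2 libraries from controls (control 1 and control 2) and 1 from *Osr2-Cre;Tgfbr1 fl/fl* embryos (the mutant). The labels give the deleted gene, a type I receptor for TGF-β, by its older symbol *Alk5*, and the controls carried *Tgfbr1 fl/fl* or *Tgfbr1 fl/+*. *Osr2-Cre* acts in the palatal mesenchyme and is not active in the myogenic cells by the study's account. The tissue was the posterior part of the palate, and whether the 2 controls came from separate embryos or pools was not stated. Levels were read in 2 sets of cells that a rule on a few genes defines. The earlier gate held cells taken by this rule as muscle progenitors, with at least 2 UMIs of *Pax7*, *Myf5* and *Myod1* together and no *Myog* UMI in a cell. The later gate held cells with at least 1 UMI of *Myog* and at least 3 UMIs of *Actc1*. A UMI, or unique molecular identifier, counts 1 captured transcript molecule, and a level is given in CPM, which is the UMIs of a gene added up within a gate and library and scaled to the same total in each. Each molecule was counted once at its 3′ end, so CPM of different genes was set side by side without a correction for length. Differences between genes in capture or mapping were not tested.

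The sarcomere is the contractile unit of striated muscle. Thin filaments of actin carry tropomyosin and the troponin complex, whose T, I and C subunits bind tropomyosin, hold back contraction and bind calcium, and thick filaments are built of myosin heavy chains with their essential and regulatory light chains. Titin and nebulin span the filaments, α-actinins and LDB3 lie at the Z-disc, and myomesins at the M-band. At the nerve-muscle junction the acetylcholine receptor opens the signal, the channel encoded by *Cacna1s* senses the change in voltage, the ryanodine receptor *Ryr1* releases calcium from the sarcoplasmic reticulum, and the pump *Atp2a1* takes it back. Developing muscle is known to begin with cardiac and embryonic forms, such as *Actc1*, *Tnnt2*, *Myl4* and *Myh3*, before adult forms replace them. The factors PAX7 and MYF5 mark muscle progenitors, and MYOG marks cells that have begun to differentiate.

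Because the members are studied for their shared rise in differentiating muscle, the promoters of 7 of them, the actin pair and members of the troponin and myosin groups that the results turn on, are shown first. The windows come from RefSeq (GRCm38.p6), run 5′ to 3′ along the gene, and hold the bases before the RefSeq start of the gene. For *Actc1*, *Tnnt1*, *Tnni1* and *Mylpf* the GENCODE gene begins further upstream, so these windows lie inside it. Bases that the GENCODE annotation places in an exon of the same gene were left out, which removed 12 bases for *Actc1*, 29 for *Tnnt1* and 19 for *Tnni1*. Capitals mark CAGCTG, an E-box of the kind that MYOD1 and MYOG are known to bind, the CArG box of serum response factor, and TATAAA on the strand of the gene.
Actc1: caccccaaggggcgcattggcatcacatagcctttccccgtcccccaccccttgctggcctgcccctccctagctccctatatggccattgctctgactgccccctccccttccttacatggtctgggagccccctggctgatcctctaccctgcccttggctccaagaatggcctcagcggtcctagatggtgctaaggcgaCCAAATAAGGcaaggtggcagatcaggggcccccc
Acta1: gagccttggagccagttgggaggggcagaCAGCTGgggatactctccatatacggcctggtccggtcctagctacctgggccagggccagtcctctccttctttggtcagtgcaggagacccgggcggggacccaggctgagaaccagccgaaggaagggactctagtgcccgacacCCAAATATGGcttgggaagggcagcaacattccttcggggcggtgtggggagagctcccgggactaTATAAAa
Tnnt1: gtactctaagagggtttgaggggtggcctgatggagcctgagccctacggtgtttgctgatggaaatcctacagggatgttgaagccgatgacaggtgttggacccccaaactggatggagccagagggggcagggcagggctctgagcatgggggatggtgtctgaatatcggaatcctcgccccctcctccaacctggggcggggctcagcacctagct
Tnnt2: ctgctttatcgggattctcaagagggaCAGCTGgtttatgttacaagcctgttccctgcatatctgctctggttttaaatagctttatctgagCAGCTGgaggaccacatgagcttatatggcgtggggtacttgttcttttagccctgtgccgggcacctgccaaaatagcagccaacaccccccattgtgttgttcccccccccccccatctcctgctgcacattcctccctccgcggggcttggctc
Tnni1: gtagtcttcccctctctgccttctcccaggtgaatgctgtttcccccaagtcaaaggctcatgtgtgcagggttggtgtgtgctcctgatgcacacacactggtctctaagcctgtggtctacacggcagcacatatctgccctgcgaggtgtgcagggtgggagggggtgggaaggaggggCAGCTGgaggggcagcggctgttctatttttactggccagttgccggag
Mylpf: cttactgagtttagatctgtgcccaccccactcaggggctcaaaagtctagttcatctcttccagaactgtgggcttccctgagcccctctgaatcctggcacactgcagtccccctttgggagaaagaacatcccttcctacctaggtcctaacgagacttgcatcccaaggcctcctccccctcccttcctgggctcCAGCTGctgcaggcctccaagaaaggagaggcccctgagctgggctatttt
Myh3: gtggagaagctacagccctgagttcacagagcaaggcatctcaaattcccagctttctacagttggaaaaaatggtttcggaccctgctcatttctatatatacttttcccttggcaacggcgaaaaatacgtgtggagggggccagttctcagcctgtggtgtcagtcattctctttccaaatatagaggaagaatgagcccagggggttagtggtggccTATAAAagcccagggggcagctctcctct
These windows lie at chr2:114052888-114053125 on the minus strand for *Actc1*, chr8:123894776-123895025 on the minus strand for *Acta1*, chr7:4516005-4516225 on the minus strand for *Tnnt1*, chr1:135836084-135836333 on the plus strand for *Tnnt2*, chr1:135799171-135799401 on the plus strand for *Tnni1*, chr7:127211358-127211607 on the plus strand for *Mylpf* and chr11:67078050-67078299 on the plus strand for *Myh3*.

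Both sarcomeric actin genes held a CArG box, 47 bases before the start in *Actc1* and 73 bases before it in *Acta1*, and *Tnnt2* held CAGCTG at 157 and at 223 bases before its start. The window of *Tnnt1* held no capital letters, and its TATAAA, 30 bases before the start, overlapped the exon bases left out. A promoter was given for 30 of the 37 members, and 4 of these had 2 entries. Within 250 bases before the start, searched on both strands, CAGCTG was found in 14 of the 30 members, or 46.7%, and in 14.7% of all 27025 genes with an entry. A CArG box was found in 5 of the 30, or 16.7%, against 1.62% of all genes, namely in *Actc1*, *Acta1*, *Ldb3*, *Myl3* and *Myom1*. The looser E-box CANNTG, which includes every CAGCTG, was found in 86.7% of the members and in 69.3% of all genes. TATAAA was found in 6 of the 30 members and in 14.3% of all genes. A MEF2 site was found in 2 of the 30 members and in 3.42% of all genes. CATTCC was found in 9 of the 30 members and in 14.4% of all genes. A match is a run of letters and not a measured binding site.

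The gates held few cells, and 1 library stood apart. The earlier gate held 26, 46 and 49 cells of control 1, control 2 and the mutant, and the later gate held 72, 67 and 52. The later gate made up 3.50% (exact 95% interval 2.75 to 4.39%) of the 2056 cells of control 1, 1.82% (1.41 to 2.30%) of the 3689 of control 2 and 0.692% (0.517 to 0.906%) of the 7515 of the mutant, and with 1 mutant library the difference could not be tested. Gated cells of control 1 were deeper, with a median of 18134.5 UMIs in the later gate against 8019 and 6594. A *Myog* UMI was found in 13.8% of the mesenchymal-like cells of control 1, in 3.11% of those of control 2 and in 0.773% of those of the mutant, with median depths of 8135, 5690.5 and 6142 UMIs, although such cells should lack the gene. In control 1, 19 of the 72 cells of the later gate held 1 to 4 *Myog* UMIs, at a median of 34871 UMIs, and 17 of these 19 held at least 3 UMIs of mesenchymal or epithelial markers. These 19 cells held 1.62% of the *Actc1* UMIs of the gate, but without them its *Tpm1* UMIs went from 1349 to 1031 and all its UMIs from 1696068 to 1001168. For this reason a stricter later gate, with at least 5 *Myog* UMIs, was added after the data had been seen, and it kept 53, 58 and 49 cells.

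Marker genes fitted the names of the gates in part. The 7 myogenic markers that the gates did not use summed to 150, 362 and 204 CPM in the earlier gate and to 650, 1331 and 944 CPM in the later gate, in the order control 1, control 2, mutant. None was at 0 in the later gate, while 2, 1 and 3 of them were at 0 in the earlier gate. The 6 mesenchymal markers summed to 196, 146 and 189 CPM in the earlier gate and to 269, 31.4 and 52.8 CPM in the later gate, where 2 of them were at 0 in the mutant. In the earlier gate of control 1 the mesenchymal sum was thus above the myogenic sum, and in the mutant it was close to it. The 5 epithelial markers summed to 75.8, 186 and 116 CPM in the earlier gate and to 396, 20.9 and 10.1 CPM in the later gate, where 3 were at 0 in the mutant. With at least 5 *Myog* UMIs the later gate held 44.9, 17.9 and 56.7 CPM of the mesenchymal and 47.9, 23.9 and 10.8 CPM of the epithelial markers. The 8 erythroid markers, hemoglobin genes and *Alas2*, reached 2750.1, 759.7 and 303 CPM in the earlier gate and 3055, 772 and 8686 CPM in the later gate. The part of these transcripts in the results below was not tested beyond the stricter gate, which left the earlier gate unchanged. Between 18 and 49 cell barcodes were shared by pairs of libraries. *Tgfbr1*, the deleted gene, had 57.2, 65.3 and 51.7 CPM among mesenchymal-like cells and 51.3, 27.9 and 47.8 CPM in the later gate. Since counts at the 3′ end need not cover the deleted exon, these values do not check the deletion.

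The first question was how the members differed between the earlier and the later gate. Together the 37 members took up 0.155%, 0.136% and 0.140% of all UMIs in the earlier gate and 1.65%, 1.56% and 1.72% in the later gate of control 1, control 2 and the mutant. The gates did not overlap. With at least 5 *Myog* UMIs the later gate held 27205, 16435 and 18232 CPM of the members, so the likeness of the 3 libraries was lost and control 1 stood highest. *Actc1* sets the later gate, so members expressed in the same cells follow that choice, and the comparison describes how far they did so. In edgeR with the library as a block, 26 of the 37 members passed the filter on low counts and 25 could be tested, since *Actc1* sets the gate. Members that passed only because they are high in the later gate had to differ, so the count over these 25 is a description. For the same reason, p-values of members in this fit are given below only for *Tnnt1*, *Tpm1*, *Tpm2*, *Ttn*, *Neb* and *Des*. These stood at 25 CPM or more in every library of the earlier gate. All 25 members tested were higher in the later gate and 0 were lower at an adjusted p under 0.05, where 7.61% of the 5293 genes tested were higher and 4.52% were lower. The median log2 difference of the 25 was 4.87, against 0.01 over all genes. Without the filter, 31 of 36 members were higher, against 3.35% of 16578 genes. The 5 others included *Tpm1* and *Mybpc1*, which had a log2 difference of 0.78 in that fit. The rest were *Myl3*, *Tcap* and *Cacna1s*, with 3, 15 and 12 UMIs in the later gate. Without the condition on *Actc1* in the later gate, 22 of 24 testable members were higher, against 519 of 7246 genes. The median log2 difference of these 24 members was 3.16. In that gate *Tpm1* lay at a log2 difference of -0.04 and the log2 difference of *Ryr1* was 1.09 (adjusted p = 0.135).

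**Figure D1:**
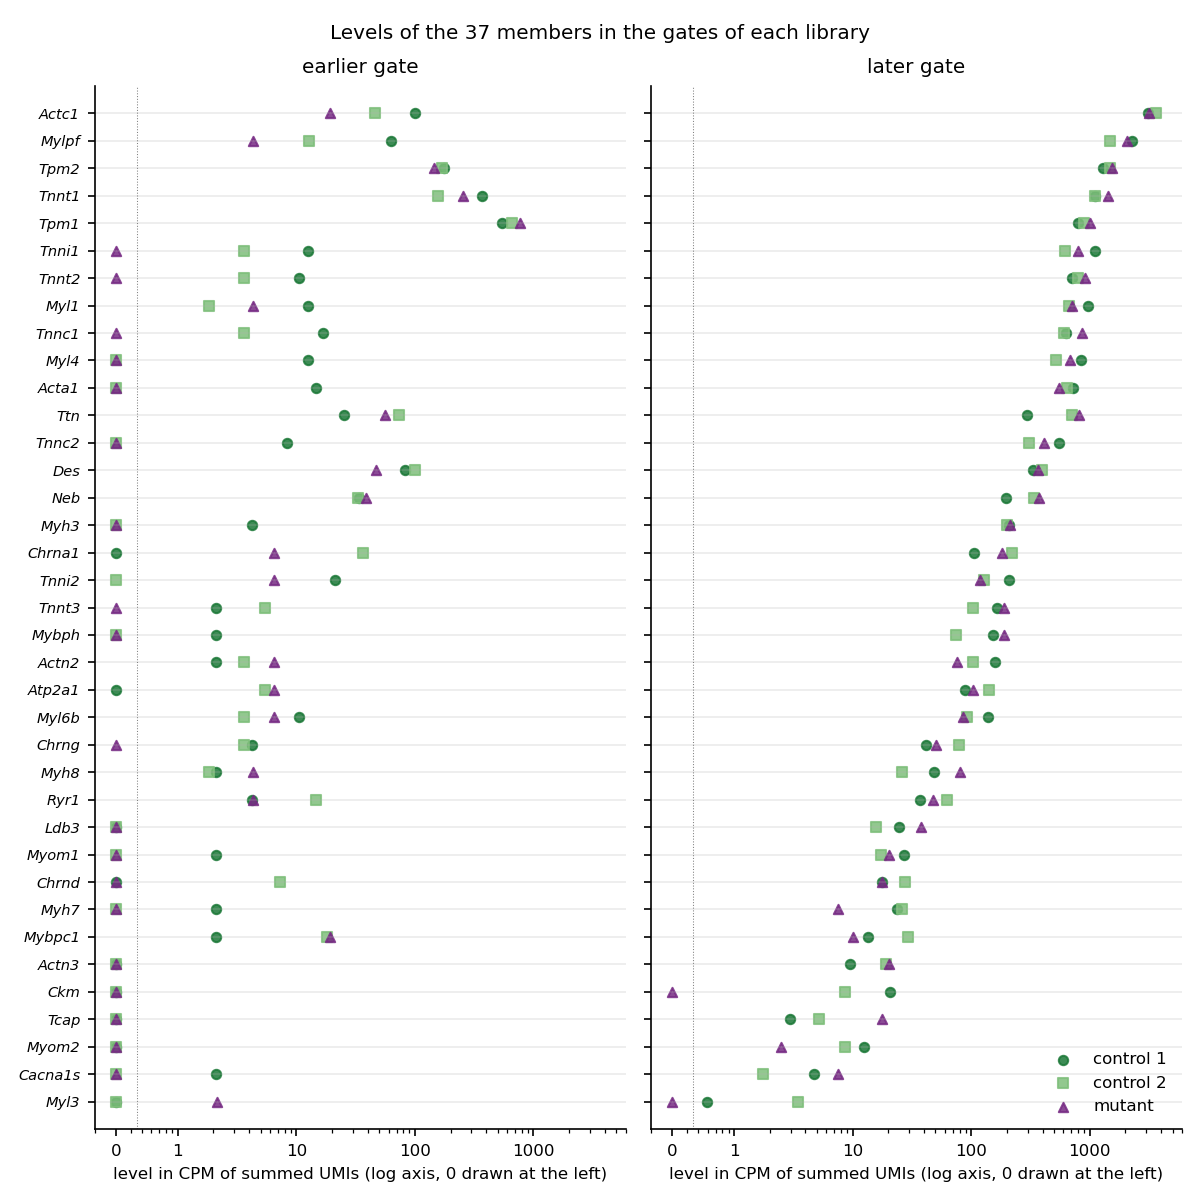
Level of each of the 37 members in the earlier gate (left) and the later gate (right), as CPM of summed UMIs on a log axis with 0 drawn at the left, 1 point per library, ordered by the mean level in the later gate. Most points of the later gate lie far to the right of those of the earlier gate, while *Tpm1*, *Tnnt1*, *Tpm2*, *Des*, *Ttn* and *Neb* already stand at 25 CPM or more in every library of the earlier gate.

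Among the thin filament genes, *Actc1*, the cardiac α-actin, stood at 101, 45.7 and 19.4 CPM in the earlier gate and at 3121, 3647 and 3173 CPM in the later gate of control 1, control 2 and the mutant. It was the highest member in every library of the later gate, and it is given without a test. *Acta1*, the skeletal α-actin, was counted with 7 UMIs in the earlier gate, all in control 1, and stood at 719, 640 and 556 CPM in the later gate. Its log2 difference was 7.19 ± 0.45 (SE). *Tpm2*, the β-tropomyosin, rose from 175, 170 and 144 CPM to 1304, 1479 and 1532 CPM, with no overlap of the gates (log2 difference 3.29 ± 0.21, adjusted p = 1.69e-09). *Tpm1*, a tropomyosin gene with transcripts in many cell types, stood at 545, 656 and 766 CPM in the earlier gate and at 795, 892 and 1014 CPM in the later gate. Its difference was the smallest of the 25 (log2 0.62 ± 0.18, adjusted p = 0.0249), and it was lost without control 2, without the mutant, and in several other settings (adjusted p between 0.0683 and 0.877).

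The troponins, which make contraction depend on calcium, fell into 2 patterns. *Tnnt2*, the cardiac troponin T, had 10.5, 3.65 and 0 CPM in the earlier gate and 708, 802 and 911 CPM in the later gate, which gave a log2 difference of 7.51 ± 0.40. *Tnnt1*, the slow skeletal troponin T, already stood at 371, 157 and 256 CPM in the earlier gate and reached 1107, 1112 and 1417 CPM, a log2 difference of 2.43 ± 0.25 (adjusted p = 8.15e-07). It was thus higher than *Tnnt2* in every library of both gates. *Tnnt3*, the fast form, was the lowest of the 3 in the later gate, at 164, 103 and 189 CPM. *Tnni1*, the slow troponin I, went from 12.6, 3.65 and 0 CPM to 1105, 624 and 798 CPM, and *Tnni2*, the fast form, from 21.1, 0 and 6.46 CPM to 210, 129 and 118 CPM. The slow form was above the fast form in each library of the later gate. *Tnnc1*, the slow and cardiac troponin C, and *Tnnc2*, the fast form, reached 633, 606 and 863 CPM and 552, 308 and 415 CPM, with log2 differences of 6.80 and 7.34.

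Of the thick filament genes, *Mylpf*, the regulatory light chain of fast muscle, was the highest, at 63.2, 12.8 and 4.30 CPM in the earlier gate and 2292, 1497 and 2068 CPM in the later gate (log2 difference 6.48 ± 0.39). The essential light chains *Myl1*, of fast muscle, and *Myl4*, of embryonic muscle and atrium, reached 972, 667 and 715 CPM and 839, 523 and 687 CPM, with log2 differences of 7.12 and 7.49. *Myl6b* rose less (log2 4.06), and *Myl3*, the ventricular and slow form, was counted with 3 UMIs in the whole later gate. *Myh3*, the embryonic heavy chain, was at 4.21, 0 and 0 CPM in the earlier gate and 208, 202 and 214 CPM in the later gate. With at least 5 *Myog* UMIs it was at 349, 191 and 230 CPM in the later gate, highest in control 1. The perinatal chain *Myh8* reached 48.3, 26.1 and 80.5 CPM, and *Myh7*, the slow chain, 23.6, 26.1 and 7.55 CPM. *Mybph*, a myosin-binding protein, was counted with 1 UMI in the earlier gate and reached 152, 74.9 and 189 CPM, a log2 difference of 7.44 ± 0.51. *Mybpc1*, the slow myosin-binding protein C, stood apart, with 2.11, 18.3 and 19.4 CPM in the earlier gate and 13.6, 29.6 and 10.1 CPM in the later gate, and the gates overlapped.

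Among the genes of giant and scaffold proteins, *Ttn*, *Neb* and *Des* stood higher in the earlier gate than the others given here. *Ttn*, titin, had 25.3, 73.0 and 56.0 CPM in the earlier gate and 297, 713 and 813 CPM in the later gate (log2 difference 3.73 ± 0.23, adjusted p = 1.26e-09), with control 1 lowest in both. *Neb*, nebulin, which runs along the thin filament, had 33.7, 32.9 and 38.7 CPM and then 196, 342 and 375 CPM (log2 3.25 ± 0.25, adjusted p = 2.05e-08). *Des*, desmin, the intermediate filament of muscle, had 82.1, 100 and 47.4 CPM and then 331, 394 and 367 CPM (log2 2.41 ± 0.23, adjusted p = 4.1e-07). In all 3 the gates were separate in every library. The Z-disc gene *Actn2* rose from at most 6.46 CPM to 159, 105 and 75.5 CPM. *Actn3*, *Ldb3*, *Ckm*, *Myom2* and *Tcap* had 0 UMIs in every library of the earlier gate and 15 to 66 UMIs in the later gate. Against a floor of 3 UMIs over the gate, their pooled level was at least 6.50-fold, 12.3-fold, 7.43-fold, 5.02-fold and 2.79-fold higher, in that order. By library (control 1, control 2, mutant) *Ckm* had 35, 5 and 0 UMIs in the later gate and *Myom2* 21, 5 and 1. *Tcap* had 5, 3 and 7 there. *Myom1*, the other myomesin, had 1 UMI in the earlier gate and 27.1, 17.4 and 20.1 CPM in the later gate.

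Of the genes of the nerve-muscle junction and of calcium release, *Chrna1*, *Chrng*, *Ryr1* and *Atp2a1* passed the filter on low counts and rose in the later gate. *Chrna1*, the α subunit of the acetylcholine receptor, had 0, 36.5 and 6.46 CPM in the earlier gate and 106, 221 and 184 CPM in the later gate (log2 difference 3.82 ± 0.39). *Chrng*, the subunit of the embryonic receptor, reached 41.3, 78.4 and 50.3 CPM (log2 4.49 ± 0.52), and *Chrnd* 17.7, 27.9 and 17.6 CPM. Control 2 was the highest library for all 3 subunits in both gates except for *Chrng* in the earlier gate. *Ryr1* had 4.21, 14.6 and 4.30 CPM and then 37.1, 62.7 and 47.8 CPM (log2 2.83 ± 0.41), and *Atp2a1* 0, 5.48 and 6.46 CPM and then 88.4, 141 and 103 CPM (log2 4.94 ± 0.41). *Cacna1s*, the voltage sensor, was counted with 12 UMIs in the later gate, too few to place its level.

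The level of a member in the earlier gate was set against mesenchymal-like cells, which should lack most members but themselves express *Tpm1* and *Tpm2*. In the earlier gate, 7 members had a lower 95% Poisson limit above their level in mesenchymal-like cells of the same library in all 3 libraries, and these were *Actc1*, *Tnnt1*, *Tpm1*, *Tpm2*, *Ttn*, *Neb* and *Des*. The intervals cover counting error only. *Des* had 82.1, 100 and 47.4 CPM against 7.98, 2.22 and 0.919 CPM in mesenchymal-like cells, and *Ttn* 25.3, 73.0 and 56.0 CPM against 3.46, 1.59 and 0.204 CPM. *Tpm1* exceeded its level in mesenchymal-like cells by 1.33, 1.25 and 1.17-fold. *Tpm2* passed narrowly in control 1, with a lower limit of 139.21 CPM against 138.95 CPM. The comparison took the mesenchymal-like level as exact. Of the other members, 4 passed this comparison in 2 libraries, 5 in 1 and 21 in none. The share of all genes that pass is not given, so these counts are a description. *Tnnt2*, *Tnni1*, *Tnnc1*, *Myl1*, *Myl4* and *Acta1* were among the 21. With so few UMIs in the earlier gate they were not shown to be above the level in mesenchymal-like cells.

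Cells within the later gate differed widely. The members took up between 0.0551% and 8.66% of the UMIs of a cell in control 1, between 0.171% and 12.4% in control 2 and between 0.246% and 13.0% in the mutant, with medians of 0.481%, 0.953% and 0.851%. The 8, 7 and 6 cells with the largest number of member UMIs held 74.0%, 44.7% and 47.4% of all member UMIs, and 1 cell held 20.1% of the *Actc1* UMIs of control 1, so sums over cells follow a few cells. To describe the range, the cells with at least 5 *Myog* UMIs were sorted by *Actc1* per UMI within each library and split into 3 groups of 16 to 20 cells. The sorting was chosen after the data had been seen and is a description with no test.

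In the lowest group, *Actc1* was at 607, 1343 and 883 CPM, a level that the gate and the sorting set. *Tnnt1* was at 904, 807 and 749 CPM and *Ttn* at 156, 581 and 339 CPM in this group. *Mylpf* was at 61.3, 232 and 21.2 CPM and *Acta1* at 9.19, 45.2 and 7.06 CPM in the same cells. In the highest group *Mylpf* reached 8695, 4078 and 6453 CPM and *Acta1* 2773, 1996 and 1717 CPM, above *Ttn* (855, 1029 and 1061 CPM) in every library. *Tnnc1* went from 12.3, 252 and 0 CPM to 2391, 1441 and 2421 CPM. In control 1 the lowest group held *Mylpf*, *Acta1* and *Tnnc1* at no more than their level in mesenchymal-like cells (64.7, 20.1 and 23.8 CPM), and in control 2 all 3 were above it. In the mutant *Mylpf* (21.2 against 6.60 CPM) and *Acta1* (7.06 against 1.67 CPM, from 1 UMI) were above it. *Tnnc1* was not (0 against 1.60 CPM). Over the libraries, *Tnnt1* differed by 2.13 to 3.31-fold between the lowest and the highest group, *Ttn* by 1.77 to 5.47-fold and *Neb* by 2.69 to 4.29-fold. *Tpm1* differed by 1.36 to 2.41-fold and *Tnnt2* by 7.51 to 21.4-fold. *Myog* itself differed by 2.19 to 2.35-fold. With cells sorted by *Tnnt2* instead, the log2 difference of *Mylpf* between these groups was 7.42 in control 1 and 5.88 in control 2, against 1.70 and 1.07 for *Tnnt1* and 2.73 and 2.14 for *Neb*. In the mutant these genes did not differ in this way under this sorting, with 1.40 for *Mylpf*, 1.45 for *Tnnt1*, 1.30 for *Neb* and 0.97 for *Acta1*.

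**Figure D2:**
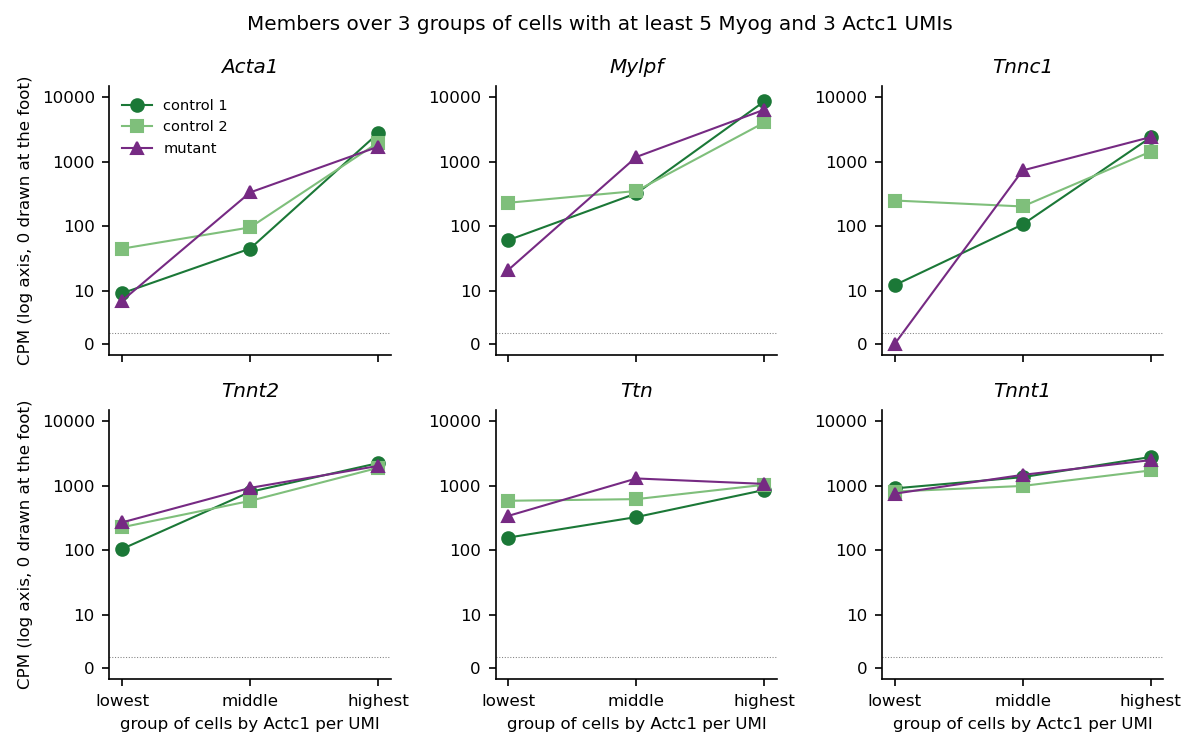
CPM (log axis, 0 drawn at the foot) of 6 members in the lowest, middle and highest group of the cells with at least 5 *Myog* and 3 *Actc1* UMIs, sorted by *Actc1* per UMI within each library, 1 line per library. In each library *Ttn* and *Tnnt1* start higher than *Acta1*, *Mylpf* and *Tnnc1* and climb less from the lowest to the highest group. *Ttn* climbs by 1.77 to 5.47-fold, and *Tnnc1* climbs by 5.72-fold in control 2, its smallest rise.

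Slow, cardiac or embryonic forms held most of the UMIs of the actins, troponins and myosin heavy chains in every library of the later gate. The fast form *Myl1* came first among the essential light chains. *Mylpf*, of fast muscle, was the only regulatory light chain among the members, so it has no share here. Of the UMIs of the sarcomeric actins, *Actc1* held 81.3% (exact 95% interval 80.3 to 82.2%) in control 1, 85.1% (83.6 to 86.5%) in control 2 and 85.1% (83.2 to 86.9%) in the mutant, but *Actc1* chose the cells. Of the troponin T UMIs, *Tnnt1* held 55.9%, 55.1% and 56.3%, *Tnnt2* 35.8%, 39.8% and 36.2%, and *Tnnt3* 8.31%, 5.10% and 7.50%. Of the troponin I UMIs, *Tnni1* held 84.0%, 82.9% and 87.1%. Of the myosin heavy chain UMIs, *Myh3* held 74.3% (70.1 to 78.1%), 79.5% (72.0 to 85.7%) and 70.8% (61.8 to 78.8%), with overlapping intervals. *Myl1* and *Myl4* held 49.9%, 51.9% and 48.1% and 43.0%, 40.7% and 46.2% of the essential light chain UMIs. In the mutant their intervals overlapped (44.0 to 52.2% and 42.1 to 50.3%). Of these families the troponin C pair differed most between the controls, since *Tnnc1* held 53.4% (51.2 to 55.6%) in control 1 against 66.3% (62.1 to 70.3%) in control 2 and 67.5% (63.3 to 71.6%) in the mutant. With at least 5 *Myog* UMIs these shares of *Tnnc1* were 53.3%, 67.5% and 67.5%. *Tnnt3* and *Actc1* also had intervals that did not overlap between the controls. The intervals cover counting error only, and a few cells hold much of these UMIs.

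**Figure D3:**
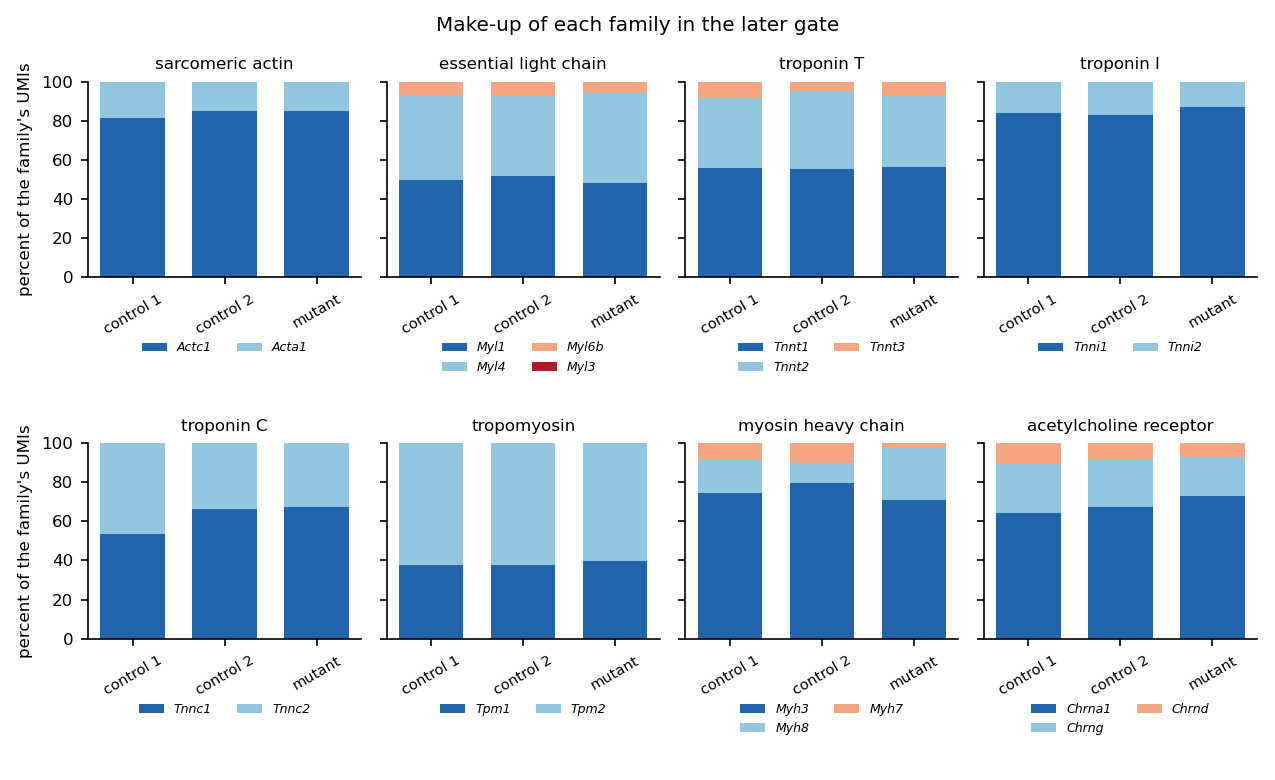
Percent of the UMIs of each protein family held by each member in the later gate, 1 stacked bar per library. The order of the members is the same in the 3 libraries for the troponins, tropomyosins and light chains, and the troponin C bar of control 1 stands apart with a smaller share of *Tnnc1*.

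Outside muscle, most members were seen at a low level that moved with the library. Over the 25 members with at least 50 CPM, the median level in mesenchymal-like cells was 2.52%, 0.466% and 0.271% of that in the later gate of control 1, control 2 and the mutant. In control 1 *Mylpf* had 64.7 CPM and *Actc1* 61.4 CPM in mesenchymal-like cells and 59.5 and 47.3 CPM in epithelial-like cells, a like level in both types. In the mutant the same values were 6.60 and 2.21 CPM and 8.09 and 1.20 CPM. *Tpm1* and *Tpm2* were not of this kind. *Tpm1* reached 411, 524 and 655 CPM in mesenchymal-like cells. In the few mural-like cells (10, 10 and 32 cells), which surround vessels, it had 913, 876 and 1564 CPM and *Tpm2* had 465, 287 and 305 CPM. *Tnni2* was at 32.3, 47.8 and 65.2 CPM in myeloid-like cells against 7.54, 3.18 and 1.40 CPM in mesenchymal-like cells. In the same myeloid-like cells *Actc1* had 69.9, 4.22 and 4.57 CPM. *Myl6b* had 18.2, 12.1 and 11.9 CPM in mesenchymal-like cells. Other members also departed from the common low level. In mural-like cells *Tnnt1* had 127, 101 and 6.63 CPM and *Des* 67.7, 101 and 26.5 CPM, from few UMIs. *Tnni1* had 29.1, 12.7 and 16.2 CPM in endothelial-like cells, against 24.5, 1.83 and 1.43 CPM in mesenchymal-like cells. In neuronal-like cells of the mutant *Myl1*, *Acta1*, *Tnnt1* and *Tnnc1* had 43, 34, 30 and 29 UMIs, and *Actc1* had 0. The source was not tested.

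**Figure D4:**
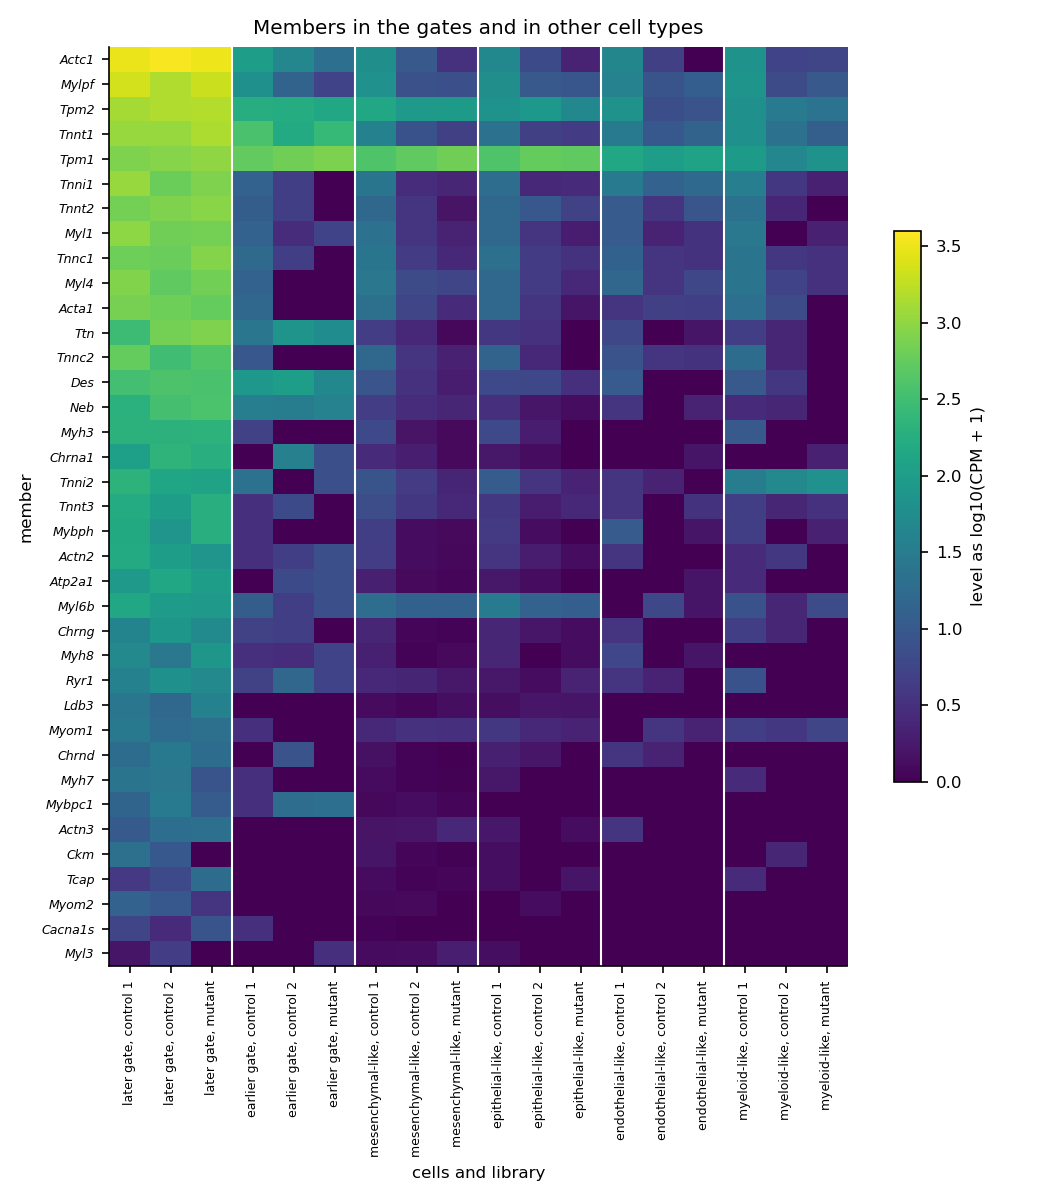
Level of each member as log10(CPM + 1), by color, in the later and earlier gates and in mesenchymal-like, epithelial-like, endothelial-like and myeloid-like cells of each library. *Tpm1* is bright in most columns, *Tnni2* is raised in the 3 myeloid-like columns, and many members show a faint level in every cell type of control 1.

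Of 74 further sarcomere and contraction genes, 33 passed the filter on low counts, 31 of these were higher in the later gate and 0 were lower, where 7.61% of all genes tested were higher. Several of the 33, such as *Mymk*, *Mymx* and *Hspb2* with 1 UMI each in the earlier gate, passed only because they are high in the later gate and had to differ, so this count is a description. Without the filter 43 of 63 were higher and 0 lower, against 3.35% higher over all genes. Their median log2 difference was 4.82. The 8 with the highest level in the later gate included the fusion genes *Mymx*, at 2.11, 0 and 0 CPM and then 250, 551 and 450 CPM, and *Mymk*, at 177, 247 and 231 CPM in the later gate. The small heat shock genes *Cryab*, *Hspb1* and *Hspb2* rose by log2 differences of 4.37, 1.99 and 7.17, *Sln*, a regulator of the calcium pump, by 6.46, *Pgam2*, a muscle enzyme of glycolysis, by 3.46 and *Nexn* by 1.12. Of 15 non-muscle and smooth muscle isoforms and related genes tested, 4 were higher (*Acta2*, *Vim*, *Myl12a* and *Myl12b*) and 1, *Tpm4*, was lower (log2 -0.61, adjusted p = 0.0454). *Acta2*, the smooth muscle α-actin, rose from 301, 236 and 256 CPM to 1021, 1345 and 1163 CPM. *Actb* and *Actg1*, the cytoplasmic actins, had log2 differences of -0.28 (adjusted p = 0.308) and -0.34 (adjusted p = 0.24).

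The last question was whether the members differed between genotypes within the later gate. With 1 mutant library there is no replicate check, and the log2 ratio of the mutant to the mean of the controls was set beside the log2 gap between the controls. A member was called when its mutant level was above both controls or below both, by at least 2-fold and by more than that gap, among genes with a mean of at least 50 CPM. Of 25 members, 1 was called higher and 0 lower, where 0.400% and 1.47% of 2250 genes were called. The median log2 ratio of the members was 0.06 and that of all genes -0.03. The median gap between the controls was 0.61 for the members and 0.28 for all genes. The ratio exceeded the gap, whatever its size, for 8 of 25 members, 6 higher and 2 lower, against 44.6% of all genes. With at least 5 *Myog* UMIs it did so for 4 of 25 members, 1 higher and 3 lower, and for 1074 of 2192 genes. Together the members summed to 16481 and 15644 CPM in the controls and to 17181 CPM in the mutant, and with at least 5 *Myog* UMIs control 1 lay above the 2 others.

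The called member was *Myh8*, the perinatal myosin heavy chain. It was counted with 82, 15 and 32 UMIs, or 48.3 (95% Poisson interval 38.5 to 60.0), 26.1 (14.6 to 43.1) and 80.5 (55.1 to 114) CPM, in control 1, control 2 and the mutant. Its log2 ratio was 1.18 beside a gap of 0.89, and with at least 5 *Myog* UMIs it was 0.92 beside a gap of 1.64, where it was not called. Against control 2 alone its log2 ratio was 1.62, and against control 1 alone it was 0.74, under the 2-fold limit. *Myh8* also held 26.7% (19.0 to 35.5%) of the myosin heavy chain UMIs in the mutant against 17.3% (14.0 to 21.0%) and 10.3% (5.87 to 16.4%) in the controls. Of the members beyond the gap, *Tnnc1* (log2 0.48), *Tnnt1* (0.35), *Tnnt2* (0.27), *Tpm1* (0.27) and *Myh3* (0.06) were higher by less than 2-fold, and *Acta1* (-0.29) and *Actn2* (-0.77) were lower. As a mean over cells in place of a sum, *Acta1* turned to 0.21. With at least 5 *Myog* UMIs, *Tnnc1* was at 0.20, *Tnnt1* at 0.02, *Tnnt2* at -0.07 and *Tpm1* at 0.07, all within the gap of that gate, and the median over the 25 members was -0.17. *Ttn* had a log2 ratio of 0.82, but the controls themselves differed by 1.26. Among the members under 50 CPM, *Ckm* had 35 and 5 UMIs in the controls and 0 in the mutant, which allows up to 9.28 CPM there, and *Myh7* was at 7.55 CPM (1.56 to 22.1) against 23.6 (16.8 to 32.1) and 26.1 (14.6 to 43.1) CPM, from 3, 40 and 15 UMIs. As a mean over cells, the log2 ratio of *Myh7* turned from -1.72 to 0.41.

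**Figure D5:**
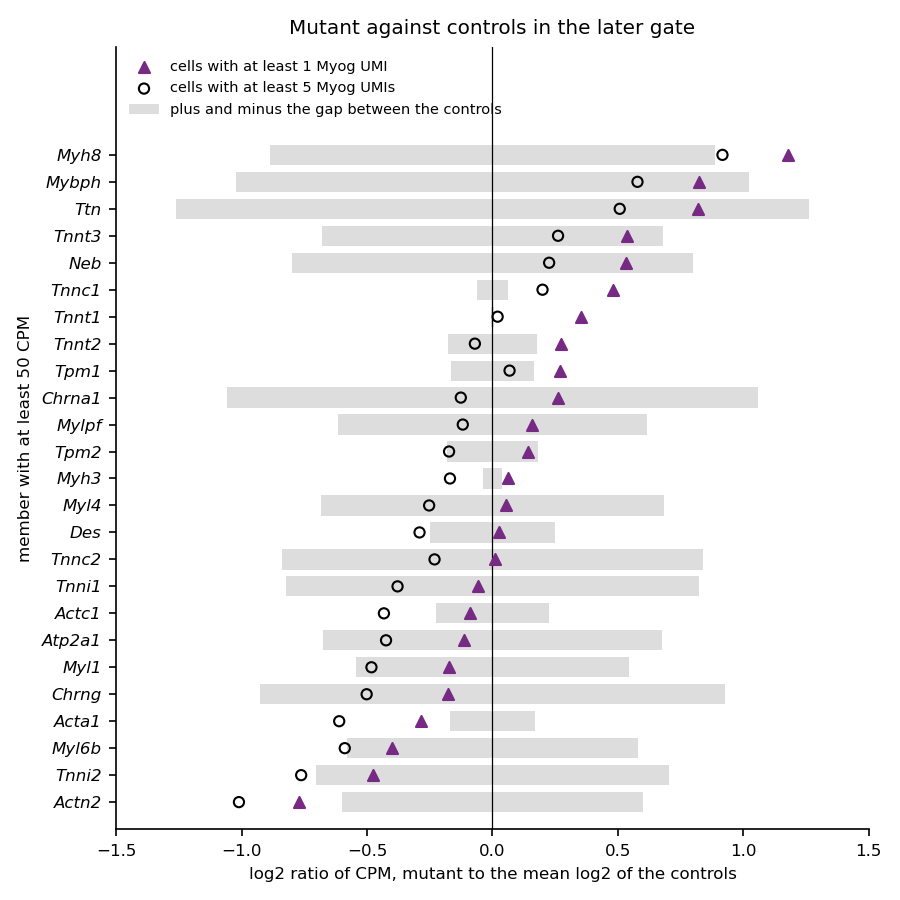
Log2 ratio of CPM in the mutant to the mean log2 of the 2 controls in the later gate, for the 25 members with at least 50 CPM (triangles) and for the same members in cells with at least 5 *Myog* UMIs (circles), beside plus and minus the gap between the controls in the first of these gates (grey bars). Most triangles lie within the grey bars, and the circles lie to the left of the triangles for all 25 members.

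When every cell of a library was summed, muscle and other cells together, *Actc1* had 311, 92.9 and 26.0 CPM and *Mylpf* 247, 43.0 and 22.0 CPM, in the order used above. The mutant was lowest for both, and control 1 was above control 2 by more than control 2 was above the mutant on the CPM scale. As a ratio, this held for *Mylpf* but not for *Actc1*. *Tpm1*, which many cell types express, ran the other way, at 426, 502 and 562 CPM. A smaller number of muscle cells and less RNA per muscle cell cannot be told apart in such sums.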

How the data were processed

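Per the labels and the file headers, the authors aligned reads of 10x single-cell 3′ v2 libraries and deposited unnormalized UMI counts for each gene in each barcode, 1 matrix per library. The matrix headers and protocol name Cell Ranger 4.0.0, the submitters' processing notes Cell Ranger 3.1.0, with build mm10. The libraries held 2816, 4067 and 8690 barcodes and 22624711, 27814907 and 63505144 UMIs.

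Barcodes needed at least 500 genes and at most 10% mitochondrial UMIs. Also left out were those with the highest Scrublet scores (scanpy 1.11.5), at 0.8% per 1000 barcodes, because Scrublet's own threshold marked 0, 0 and 1 barcodes. Other cell types were named where the UMIs of 1 marker list reached 3 and were at least 2 times those of the next list, or, for red cells, where hemoglobin made up 20% of UMIs. Counts were summed per gate and library (6 sums) and tested with edgeR 4.0.16 (R 4.3.3): filterByExpr, TMM factors, quasi-likelihood test, library as a block because both gates of a library share the same embryo tissue, and Benjamini-Hochberg adjustment over all genes. The standard errors are approximate, from the log2 difference and its F value. Cells are not replicates, and where the 2 controls are not separate animals, p-values measure only the spread between libraries. The mutant was compared with the controls without a test. A count of 0 was set to 3 UMIs for a ratio. Intervals are exact Poisson or Clopper-Pearson intervals at 95% and cover counting error only.

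The edgeR test was tested on simulated data for the comparison of the gates, with the same set spread for every gene. Of 200 changed genes among 5298, it recovered 0, 155 and 199 at log2 changes of 1, 2 and 3, with 0, 6 and 5 false calls. The spread was not taken from these data, so the shares recovered need not hold in them. On simulated data with counting error only, the rule for the mutant recovered 200 of 200 genes changed by 2 on the log2 scale, among 2250 genes, with 4 false calls. Such data lack the gap between the controls beyond counting error, so the result does not show how the rule performs here. Members, lists and rules were chosen with earlier results of these data known. Members with at least 10 CPM could be given per library, with the 8 highest of the other sarcomere genes and the 4 highest non-muscle isoforms. The isoforms that passed the test were added after their values were seen, since they were 5. All 37 members matched GENCODE M21 (GRCm38), and none shared exon bases with another gene on its strand. The alternatives were DESeq2 1.42.0, other scaling, filters, gates and depths, and each library left out.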

Additional observations from a re-analysis of the deposited data

Results flagged for a closer look

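*Mybpc1*, the slow myosin-binding protein C, had differences of opposite sign between the gates in the controls and the mutant. Its level in the later gate was 11.5 and 11.4 CPM above that in the earlier gate in control 1 and control 2, and in the mutant the difference was -9.31 CPM. In the mutant it was counted with 9 UMIs in the earlier gate and 4 in the later gate, with overlapping 95% Poisson intervals (8.86 to 36.8 and 2.74 to 25.8 CPM), and control 1 had 1 UMI in the earlier gate. With 1 mutant library the difference between genotypes was not tested.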

How the results depend on the processing

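The direction of the members between the gates was stable: 0 members were lower in the later gate in any setting run, and 24 or more were higher with DESeq2, without scaling factors, without the replicate block (24 of 25), without any 1 library, with other gates on *Actc1* or the progenitors, with doublets kept and with looser filters on cells. Exceptions were 22 of 24 without the condition on *Actc1*, and 14 of 15 with each cell thinned to 2000 UMIs, where fewer members could be tested. Over all genes, 519 of 7246 and 64 of 573 were higher in these settings, in that order. The gates of a library come from the same tissue, and the fit without the replicate block lost *Tpm1* alone. *Tpm1* reversed to a log2 difference of -0.0372 without the condition on *Actc1*. The other sarcomere genes higher in the later gate were 20 of 27 without that condition and 5 of 5 after thinning. The non-muscle isoforms were unstable: the number higher was 1 without the condition on *Actc1*, 2 after thinning and between 1 and 5 with 1 library left out. The number lower was 0 with DESeq2, without the filter, without the replicate block, without the condition on *Actc1*, with progenitors of at least 3 UMIs and with doublets kept, 3 without scaling factors, 2 after thinning, 5 with *Actc1* of at least 10 UMIs or *Myog* of at least 5 UMIs (added after the data had been seen), and between 0 and 5 with 1 library left out. Without scaling factors the median log2 difference of all genes moved from 0.01 to -0.14.

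The members called higher in the mutant were 0 with *Actc1* of at least 10 UMIs, with doublets kept and with *Myog* of at least 5 UMIs, 3 after thinning, 2 with the mean over cells, and between 1 and 2 with 1 control left out. Without control 2 the called members were *Ttn* (log2 1.45) and, lower, *Actn2* (-1.07). Without control 1 they were *Myh8* (1.62) and *Mybph* (1.33), both higher. With 1 control left there is no gap between controls, so these calls rest on the 2-fold limit alone. The members called lower were 1 at a minimum of 10 CPM, 2 after thinning and between 0 and 1 with 1 control left out. Shares of all genes called in these settings are not given, so the counts are a description. The shares of 0.400% higher and 1.47% lower belong to the main rule only. TMM factors moved the log2 ratios of the mutant up by a median of 0.12 over the members tested. The causes were not tested. The median member level in mesenchymal-like cells was 1.09% of that in the later gate as a mean over libraries and between 0.368% and 1.49% in the other settings, but the libraries themselves ranged from 0.271% to 2.52%. Few cells and few UMIs limit the members under 50 CPM.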
